A study of Homo sapiens with 4 samples.

Results

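The genes described here are 10 of the NF-kB system: the Rel subunit genes NFKB1, NFKB2, RELA and RELB, the IkB genes NFKBIA, NFKBIE and NFKBIZ, and the regulators TNFAIP3, TNIP1 and BIRC3. They were chosen by symbol from the 58233 genes of the deposited count table, and all 10 had enough counts to be tested. RNA-seq was run on 4 libraries of MCF10AT, a mammary epithelial line of the MCF10A lineage that carries the RAS oncogene HRasG12V. The 2 groups, of 2 libraries each, carry the genotypes Bromo+/- and Non-target control. Both share the line, the oncogene and a growth medium that held hydrocortisone, insulin, cholera toxin, horse serum and epidermal growth factor. The labels do not say what the name Bromo+/- refers to, which allele it describes or whether a group is 1 clone. The protocols describe lentiviral shRNA with puromycin selection, and the series title speaks of an EP300 knockdown.

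NF-kB transcription factors are dimers of Rel proteins. In a resting cell, IkB proteins hold the dimers in the cytoplasm. Receptors for tumour necrosis factor, interleukin-1 and microbial products activate the IKK kinases, IkB is degraded and the dimers enter the nucleus. NFKBIA, TNFAIP3, BIRC3, NFKB2 and RELB are themselves known targets of NF-kB, which gives the system its feedback loops. In mammary epithelium the pathway is known for its part in cytokine output, survival and gland development.

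The DNA that NF-kB dimers bind, the kB site, is shown first, because it was found near start sites both of genes that were lower and of genes that did not pass. The RefSeq promoter table (GRCh38.p14) held 8 of the 10 genes with 14 start sites. In the 250 bases before each start site, both strands were searched for GGG, any 2 bases and TTTCC in a row. This form fits the broader kB consensus, GGGRNNYYCC, only where the first of the 2 free bases is A or G. In the consensus, R is A or G, Y is C or T and N is any base. A match was found for 7 of the 8 genes, against 578 of 27305 genes in the whole table (2.12%). By start site it was 8 of 14, against 608 of 35116 (1.73%). The list was made of NF-kB genes and holds known NF-kB targets, so this comparison is a description and not a test. The broader 10-base consensus matched 7 of the 8 genes too, with 9 of 14 start sites against 9.96% of all. RELA had no match to either in these windows. Each line below gives 30 bases in the direction of the gene, with the match in capitals. In NFKBIA, TNFAIP3 and BIRC3 the match reads on the opposite strand.
NFKB1: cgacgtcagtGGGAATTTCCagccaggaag
NFKB2, start site 2: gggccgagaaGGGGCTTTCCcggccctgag
NFKB2, start site 3: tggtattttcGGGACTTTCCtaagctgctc
NFKBIA: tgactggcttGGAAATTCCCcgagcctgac
NFKBIZ: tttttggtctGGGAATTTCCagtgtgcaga
TNFAIP3: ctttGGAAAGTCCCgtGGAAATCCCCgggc
TNIP1: ccagtctccgGGGACTTTCCcaggggtggg
BIRC3: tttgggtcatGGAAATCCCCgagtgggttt

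The windows lie at chr4:102501300-102501329 (plus strand) for NFKB1, chr10:102394490-102394519 and chr10:102395674-102395703 (plus) for NFKB2, and chr14:35404811-35404840 (minus) for NFKBIA. For NFKBIZ the window is chr3:101827757-101827786 (plus), for TNFAIP3 chr6:137867188-137867217 (plus), for TNIP1 chr5:151081057-151081086 (minus) and for BIRC3 chr11:102317275-102317304 (plus). TNFAIP3 holds 2 matches, which begin 67 and 55 bases before its start site. The match begins 49 bases before the start site in NFKB1, 81 in NFKBIA, 42 in TNIP1, 199 in BIRC3 and 223 in NFKBIZ. In NFKB2 the distances are 78 and 21 bases. The TNFAIP3 window lies wholly inside exons of the count table's own gene model, and 28 of the 30 bases of the TNIP1 window do. For both genes that model begins further upstream than the RefSeq start sites used here. The window of NFKB2 start site 2 also lies wholly inside exons, downstream of start site 1, where the NFKB2 model begins. The window of NFKB2 start site 3 has 11 of its 30 bases in exons, and that of NFKB1 has 1. A match is a description of the letters, and binding was not measured.

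The libraries held 10835237 to 11975396 counts, so 3 counts correspond to 0.251 to 0.277 CPM in a single library (CPM are counts relative to library size). Mitochondrial genes took 4.32% and 4.21% of control counts, against 5.05% and 5.18% where the label is Bromo+/-. EP300, the gene named in the series title, showed no fall: it measured 106 and 111 CPM in the controls and 121 and 126 CPM where the label is Bromo+/- (log2 fold change 0.19, SE 0.06, edgeR adjusted p = 0.00701). Neither the DESeq2 Wald test (adjusted p = 0.0639) nor the edgeR test without control replicate 1 (adjusted p = 0.162) kept that call. The direction of every difference below therefore rests on the labels alone. Of 12 mammary epithelial markers, 11 were tested and all 11 were lower, against 10 with upper quartile scaling, with library size alone and without either control replicate. Their summed level was 14753 to 15228 CPM in the controls and 5005 to 5428 CPM in the libraries labelled Bromo+/-. CDH1 was at 2.61 and 2.48 CPM there against 405 and 416 CPM in the controls (log2 fold change -7.33, SE 0.18). EPCAM was at 13.4 and 12.8 CPM against 292 and 295 CPM, and KRT6A at 78.1 and 77.5 CPM against 1301 and 1222 CPM. The falls were unequal. KRT7, most of the sum in the libraries labelled Bromo+/-, was lower by little at 3467 and 3133 CPM against 3671 and 3587 CPM (log2 fold change -0.14, SE 0.05). ITGB4 was at 601 and 589 CPM against 691 and 709 CPM (-0.24, SE 0.05). KRT8 and KRT5, epithelial keratins, were still detected in the libraries labelled Bromo+/- (244 to 263 and 578 to 611 CPM). KRT14, another basal keratin, had no count in these libraries and 162 in the controls. Of 12 leukocyte markers 3 were tested (CD14, CSF1R and CORO1A) and all 3 were lower, CD14 not past the threshold with the DESeq2 Wald test (adjusted p = 0.0761) or without control replicate 1 (edgeR adjusted p = 0.0558), with CD3E, MS4A1 and HLA-DRA at 0 in every library and a single count of PTPRC in all. The summed leukocyte level was 6.55 to 7.91 CPM against 25.5 to 25.6 CPM. Of 9 fibroblast markers 4 were tested, 3 higher and 1 lower, with sums of 139 to 141 CPM against 41.5 to 43.5 CPM. DCN was at 80.2 and 78.0 CPM against 0.764 and 0.692 CPM, POSTN at 35.9 and 36.6 CPM against 0.0955 and 0.259 CPM, and COL1A1 at 7.82 and 7.09 CPM against 3.34 and 2.42 CPM. FAP, most of the sum in the controls, was lower at 16.9 and 16.7 CPM against 39.0 and 37.7 CPM, and COL3A1 and LUM were at 0 in every library. Of 8 endothelial markers 4 were tested, 2 higher (EGFL7 and KDR) and 1 lower (ROBO4), with sums of 19.3 to 23.6 CPM against 25.3 to 27.7 CPM and VWF and ERG at 0. ROBO4 was at 5.54 and 4.16 CPM against 15.4 and 13.7 CPM. Only 1 endothelial marker was higher with the DESeq2 Wald test and without Bromo+/- replicate 1, Bromo+/- replicate 2 or control replicate 2, and 2 were lower without control replicate 2. The part of these shifts and of the mitochondrial share in the results below was not tested.

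Of the 10 genes, 7 were lower in the libraries labelled Bromo+/-, none was higher and 3 (NFKB1, RELA and NFKBIA) did not pass. Over all 13179 genes tested, 27.1% were called lower and 26.4% higher, 53.5% in all (edgeR quasi-likelihood test, adjusted p of 0.05). The median log2 fold change of the 10 was -0.93, and that of all tested genes was 0.01. In bulk RNA, fewer cells with a transcript and less transcript per cell cannot be told apart. Both libraries labelled Bromo+/- lay below both controls for 8 of the 10 genes and above them for none, against 37.5% and 37.8% of all tested genes (75.2% in either direction). Separate cultures are not stated for the libraries of a group, so the spread behind these p-values may be purely technical.

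**Figure D1:**
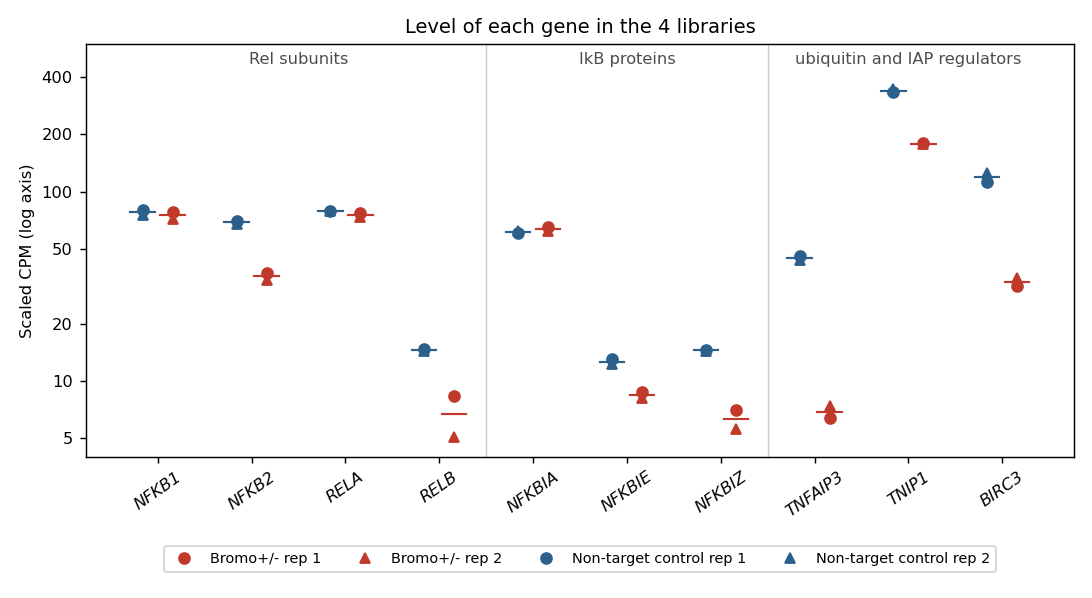
Scaled CPM (log axis) of the 10 genes in each of the 4 libraries, with circles for replicate 1, triangles for replicate 2 and a bar at the mean of each group (n = 2). The red Bromo+/- points of TNFAIP3 (6.36 and 7.35 CPM) lie furthest below the blue controls (45.7 and 43.3 CPM), while NFKB1 and NFKBIA overlap.

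Of the 4 Rel subunit genes, NFKB2 and RELB were lower and NFKB1 and RELA did not pass. NFKB1 encodes p105, the precursor of p50, and RELA encodes p65, the partner of p50 in the classical dimer. NFKB1 (ENSG00000109320, chromosome 4, 102501329 to 102617302) measured 80.0 and 75.5 CPM in the controls and 78.4 and 71.2 CPM in the libraries labelled Bromo+/-. The 2 groups overlapped, and the log2 fold change was -0.05 (95% interval -0.19 to 0.08, edgeR adjusted p = 0.541). RELA (ENSG00000173039, chromosome 11, 65653596 to 65663094) measured 76.7 and 73.2 CPM against 78.5 and 78.9 CPM. Both libraries labelled Bromo+/- lay just under both controls, and the difference did not pass (log2 fold change -0.07, 95% interval -0.21 to 0.07, edgeR adjusted p = 0.409). The sign of both values turned when libraries were scaled by library size alone, and that of NFKB1 also with upper quartile scaling and without Bromo+/- replicate 2.

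NFKB2 and RELB encode the partners of the dimer of the alternative pathway. NFKB2 encodes p100, the precursor of p52 (ENSG00000077150, chromosome 10, 102394110 to 102402529). It measured 70.3 and 67.2 CPM in the controls and 37.2 and 34.3 CPM in the libraries labelled Bromo+/-. The groups were well apart, and the level in the libraries labelled Bromo+/- was 52.1% of control (log2 fold change -0.94, SE 0.08, edgeR adjusted p = 2.73e-25). RELB (ENSG00000104856, chromosome 19, 45001430 to 45038198) was at 8.31 and 5.05 CPM against 14.7 and 14.4 CPM. The libraries labelled Bromo+/- differed more from each other (102 and 57 counts) than the controls did (154 and 167 counts), and both lay below the controls. The log2 fold change of RELB was -1.11 (SE 0.16, edgeR adjusted p = 4.48e-11), and it ran from -1.53 to -0.81 as each library was left out.

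**Figure D2:**
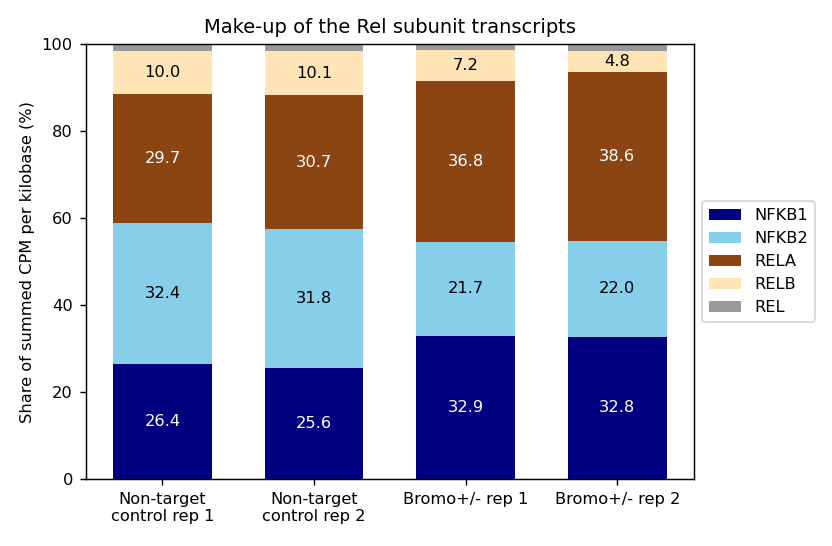
Share of each Rel subunit gene, in percent of the summed CPM per kilobase of NFKB1, NFKB2, RELA, RELB and REL, in each library (stacked bars). NFKB2 took 31.8 to 32.4% in the controls and 21.7 to 22.0% in the libraries labelled Bromo+/-, where RELA had the largest share.

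Expressed per kilobase of the deposited gene length, the make-up of the subunit transcripts differed between the groups, as drawn in the plot of subunit shares. That length covers all annotated exons of a gene and can exceed the transcript present, so the order of different genes is approximate. By this measure NFKB2 was the largest of the 5 subunit genes in the controls, with 32.1% ± 0.37 (SD, n = 2) of their sum. It took 21.9% ± 0.21 in the libraries labelled Bromo+/-. RELA took 37.7% ± 1.27 there against 30.2% ± 0.71 in the controls, and NFKB1 32.8% ± 0.03 against 26.0% ± 0.55. RELB took 5.99% ± 1.69 against 10.1% ± 0.07. REL, the remaining subunit, took 1.56% ± 0.24 and 1.62% ± 0.13, within the spread of the libraries. The ratio of NFKB2 to NFKB1 per kilobase was 1.23 and 1.24 in the controls and 0.661 and 0.672 in the libraries labelled Bromo+/-. Shares and ratios are given as descriptions, without a test.

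The IkB genes did not move together. NFKBIA encodes IkB-alpha, the main cytoplasmic inhibitor and a fast feedback gene of RELA dimers (ENSG00000100906, chromosome 14, 35401511 to 35404749). It measured 60.6 and 62.1 CPM in the controls and 64.8 and 62.0 CPM in the libraries labelled Bromo+/-. The groups overlapped, and the interval of the log2 fold change, 0.05, ran from -0.10 to 0.19 (edgeR adjusted p = 0.601). NFKBIE encodes IkB-epsilon, a slower inhibitor of the same kind (ENSG00000146232, chromosome 6, 44258166 to 44265788). It was at 8.72 and 8.15 CPM against 13.1 and 12.3 CPM. Both libraries labelled Bromo+/- lay below both controls, at 66.7% of control (log2 fold change -0.58, SE 0.15, edgeR adjusted p = 0.000297), the smallest of the 7 falls. NFKBIZ encodes IkB-zeta, an inducible nuclear IkB that acts as a cofactor at secondary target genes (ENSG00000144802, chromosome 3, 101827991 to 101861022). It was at 7.01 and 5.58 CPM against 14.6 and 14.4 CPM. The groups did not overlap, and the level was 43.6% of control (log2 fold change -1.20, SE 0.16, edgeR adjusted p = 9.33e-13).

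All 3 regulators of ubiquitin signalling were lower. TNFAIP3 encodes A20, a ubiquitin-editing enzyme that shuts off signalling from the TNF receptor to IKK (ENSG00000118503, chromosome 6, 137867188 to 137883312). It measured 45.7 and 43.3 CPM in the controls and 6.36 and 7.35 CPM in the libraries labelled Bromo+/-. The controls were 6.49-fold higher, the largest difference among the 10 genes (log2 fold change -2.70, SE 0.13, edgeR adjusted p = 2.52e-62), and 2.65% of tested genes had a lower value. Of its 5051 exon bases, 95 overlap the antisense gene WAKMAR2, which had 85 counts over all libraries, against 161 and 979 counts of TNFAIP3 in the 2 groups. BIRC3 encodes cIAP2, a ubiquitin ligase of the receptor complex that also restrains the alternative pathway (ENSG00000023445, chromosome 11, 102317450 to 102339403). It was at 31.6 and 35.1 CPM against 113 and 125 CPM. The controls were 3.57-fold higher, with no overlap (log2 fold change -1.84, SE 0.08, edgeR adjusted p = 2.86e-66). BIRC2, its close paralogue, measured 61.5 and 67.2 CPM against 65.0 and 71.4 CPM and did not pass (log2 fold change -0.09, 95% interval -0.23 to 0.06). It was named after its value was seen. TNIP1 encodes ABIN-1, a ubiquitin-binding partner of A20 (ENSG00000145901, chromosome 5, 151029945 to 151093577). It measured 180 and 178 CPM against 334 and 346 CPM, 52.6% of control (log2 fold change -0.93, SE 0.05, edgeR adjusted p = 2.07e-43). The exons of the other 9 genes overlap no other gene of the count table.

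**Figure D3:**
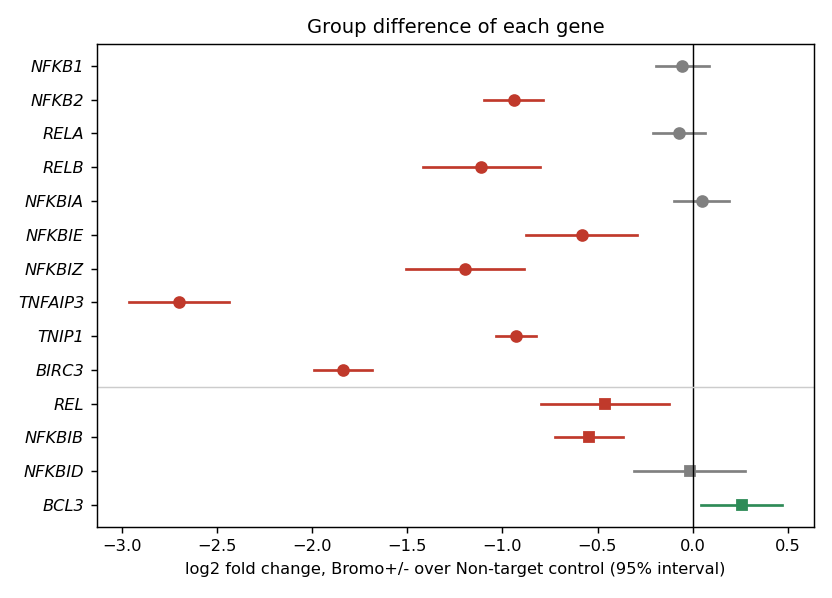
Log2 fold change of each gene, Bromo+/- over Non-target control, with its 95% interval, for the 10 genes (circles) and 4 further Rel and IkB family genes (squares). Red marks genes called lower, green higher and grey not called. The intervals of NFKB1, RELA, NFKBIA and NFKBID include 0, and that of TNFAIP3 (-2.96 to -2.44) lies apart from all others.

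The genes were also ordered by level per kilobase of the deposited length, an approximate measure as said above. BIRC3 stood in place 3 of 10 in the controls and in place 6 in the libraries labelled Bromo+/-, and TNFAIP3 in places 7 and 9. In the controls the mean CPM per kilobase ran from TNIP1 (58.7) and NFKBIA (25.8) through BIRC3 (15.8), NFKB2 (15.3), RELA (14.4) and NFKB1 (12.4) to TNFAIP3 (8.81), NFKBIE (4.91), RELB (4.80) and NFKBIZ (2.46). Of these neighbours, BIRC3 and NFKB2 overlapped between libraries, as did NFKBIE and RELB. In the libraries labelled Bromo+/- TNIP1 (30.9) and NFKBIA (26.7) again came first, followed by RELA (13.7), NFKB1 (12.0), NFKB2 (7.97), BIRC3 (4.44), NFKBIE (3.27), RELB (2.20), TNFAIP3 (1.36) and NFKBIZ (1.07), with no overlap between neighbours. The ratio of NFKBIA to RELA per kilobase was 1.95 in each library labelled Bromo+/- and 1.78 and 1.81 in the controls. The ratio of TNFAIP3 to NFKBIA, the negative regulators of receptor signalling and of the dimer, was 0.0461 and 0.0557 against 0.354 and 0.328. Neither ratio overlapped between the groups: the first was higher in the libraries labelled Bromo+/- and the second lower. Lack of overlap is common here, with 75.2% of all tested genes in either direction, and neither NFKBIA nor RELA passed on its own. These ratios were not tested.

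Of 4 further genes of the family, all tested, 2 were lower, 1 was higher and 1 did not pass. REL encodes c-Rel and measured 5.95 and 6.73 CPM in the libraries labelled Bromo+/- against 8.31 and 9.08 CPM (log2 fold change -0.46, SE 0.17, edgeR adjusted p = 0.0160). NFKBIB, which encodes IkB-beta, was at 31.4 and 24.5 CPM against 39.4 and 42.4 CPM (log2 fold change -0.55, SE 0.09, edgeR adjusted p = 3.71e-08). BCL3, a nuclear IkB, was at 24.7 and 22.5 CPM against 18.2 and 21.2 CPM (log2 fold change 0.26, SE 0.11, edgeR adjusted p = 0.0340). NFKBID, another nuclear IkB, did not pass (log2 fold change -0.02, 95% interval -0.31 to 0.27). The calls for REL and BCL3 each ended in 4 of 10 alternatives, with adjusted p up to 0.183 for REL and 0.385 for BCL3. Without Bromo+/- replicate 1 both ended (edgeR adjusted p = 0.127 and 0.236). REL also lost its call without control replicate 2 (0.135, edgeR), and BCL3 without control replicate 1 (0.385, edgeR).

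Upstream of the dimers, genes lay on both sides. Of 12 tested kinase and adaptor genes of the IKK complex and its activators, 3 were lower, 2 higher and the other 7 did not pass (median -0.01 on the log2 scale). The lower genes were TAB3 (-1.17, SE 0.08), a ubiquitin-binding subunit of the TAK1 kinase complex, MAP3K14 (-0.51, SE 0.09), the NIK kinase of the alternative pathway, and MAP3K8 (-1.21, SE 0.26), a kinase held by p105. MAP3K3 was higher (0.46, SE 0.09). The count of higher genes in this list was 1 without Bromo+/- replicate 1, without either control replicate, with the DESeq2 Wald test and with no filter on low counts, and 4 with scaling by library size alone. The core IKK genes CHUK (-0.05), IKBKB (0.04) and IKBKG (0.30), named after their values were seen, did not pass. Of 13 tested TNF receptor and adaptor genes 3 were higher and 5 lower, with a median of -0.10. TNFRSF1A, the main TNF receptor, measured 164 and 163 CPM against 92.0 and 85.7 CPM (0.88, SE 0.06), and the kinase RIPK1 of the same receptor complex was also higher (0.51, SE 0.09). TRAF2, an adaptor that carries BIRC2 and BIRC3 (-0.36, SE 0.07), and the receptor TNFRSF12A (-0.39, SE 0.06) were lower. The number of lower genes in this list fell to 2 with the DESeq2 Wald test and without control replicate 2, and to 3 without Bromo+/- replicate 2, with upper quartile scaling and with library size alone.

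Toll-like and interleukin-1 receptor genes also lay on both sides. Of 13 tested, 3 were higher, 5 lower and 5 did not pass (median -0.05). The higher genes were the receptors TLR3 (1.29, SE 0.21), TLR4 (0.73, SE 0.08) and IL1R1 (0.74, SE 0.09). Other receptors were lower: TLR5 (-1.98, SE 0.55, on few counts), TLR1 (-1.02, SE 0.26) and TLR6 (-0.33, SE 0.12). The adaptor MYD88 (-0.38, SE 0.07) was lower too, and these lower genes were named after their values were seen. TICAM1, the adaptor of TLR3 and TLR4, was lower at 16.5 and 15.0 CPM against 33.0 and 32.4 CPM (-1.05, SE 0.11). Of the 4 tested genes of the CARD-BCL10-MALT1 complex, which links antigen and G protein-coupled receptors to IKK, 3 were lower: CARD10 (-1.44, SE 0.07), MALT1 (-0.62, SE 0.07) and BCL10 (-0.29, SE 0.11), the last losing its call in 5 of 10 alternatives, among them without Bromo+/- replicate 1 (edgeR adjusted p = 0.215) and without control replicate 1 (0.345, edgeR). Of 12 tested linear ubiquitin ligase and deubiquitinase genes, 5 were lower and 1 higher. ITCH (-0.59, SE 0.07) and TAX1BP1 (-0.55, SE 0.06), which work with A20 in one complex, were among the lower genes, as were RBCK1 (-0.55, SE 0.07), a subunit of the linear ubiquitin ligase, and the deubiquitinase OTULIN (-0.30, SE 0.08). Without control replicate 2 this list had 3 lower genes and none higher, and OTULIN lost its call (edgeR adjusted p = 0.0652). Over these 6 lists of family and upstream genes, 23 of 58 tested genes were lower and 10 higher, with a median of -0.09, against 27.1% and 26.4% of all genes. With the DESeq2 Wald test fewer were lower: 2 against 5 in the TNF receptor list and 2 against 3 in the CARD-BCL10-MALT1 list. It was 4 against 5 in both the Toll-like and the linear ubiquitin list, 1 against 2 among family genes, and 3 as before in the IKK list. Fewer genes of the 6 lists were called higher with that test too. The count of higher genes was 6 without Bromo+/- replicate 1.

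**Figure D4:**
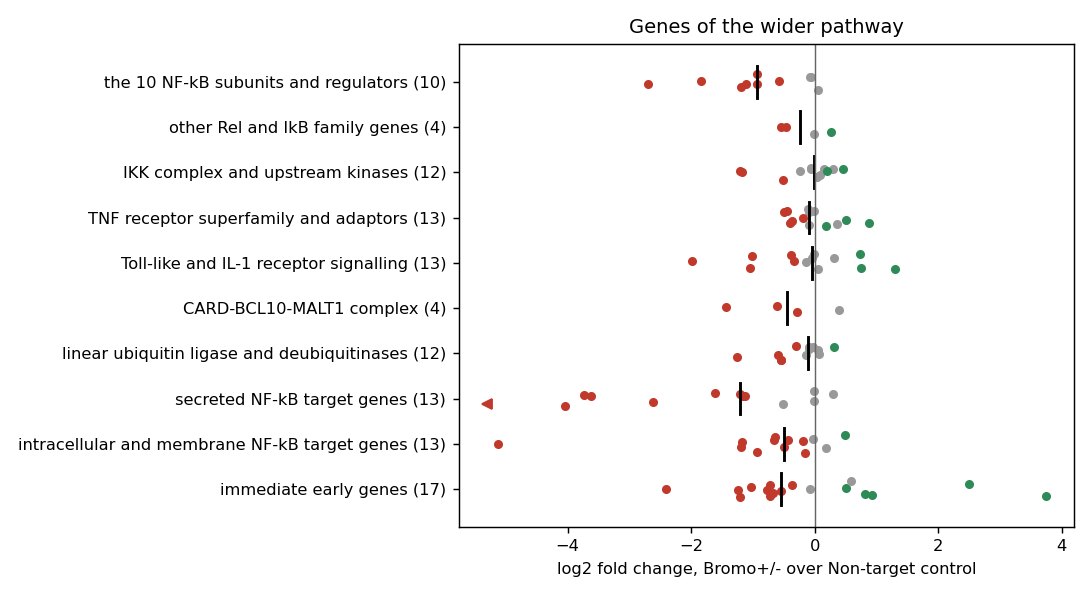
Log2 fold change, Bromo+/- over Non-target control, of every tested gene of the 10 and of the wider lists (number tested in brackets), with a black bar at each median. Red marks genes called lower, green higher and grey not called, and the triangle is a gene without counts in the libraries labelled Bromo+/-, drawn at its bound. Target lists lie mostly left of 0, and kinase and receptor lists lie on both sides.

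Known target genes were mostly lower. Over both target lists, 19 of 26 tested genes were lower and 1 was higher, against 27.1% and 26.4% of all tested genes. Of 13 tested secreted targets 9 were lower, none higher and 4 did not pass. Their median, -1.21 on the log2 scale, was the same with LCN2, which had 111 counts in the controls and none in the libraries labelled Bromo+/-, set at its bound. LCN2 was thus at least 39.6-fold lower, with the floor for a gene without counts set at 3 counts over the group. SAA1 and SAA2, acute-phase serum amyloid genes alike in sequence whose counts may be shared, were lower (-3.62, SE 0.19, and -3.74, SE 0.38). SAA2, with 14 and 3 counts in the libraries labelled Bromo+/-, was at -5.14 without Bromo+/- replicate 1 and at -3.09 without Bromo+/- replicate 2. The cytokine genes IL1A (-2.62, SE 0.20) and LIF (-1.61, SE 0.07) were lower too. The other 7 listed secreted genes, TNF among them with 0 counts in every library, had too few counts to be tested. Of 13 tested intracellular and membrane targets 10 were lower, 1 higher and 2 did not pass (median -0.49). Over the 10 alternatives the number of lower genes in this list ran from 7 to 10. GADD45B was the higher gene (0.49, SE 0.08), while CFLAR (-0.16, SE 0.07) and BCL2L1 (-0.18, SE 0.06) were lower by little. CFLAR lay close to the threshold (edgeR adjusted p = 0.0436). All were named after their values were seen. PTGS2, the inducible cyclooxygenase, was at 0.326 and 0.266 CPM against 9.84 and 11.5 CPM (-5.12, SE 0.56). PLAU, the urokinase (-1.18, SE 0.07), TNFAIP2 (-0.94, SE 0.08) and the hyaluronan receptor CD44 (-0.65, SE 0.05) were lower. SOD2, the mitochondrial superoxide dismutase and a known target, did not pass (-0.02, 95% interval -0.15 to 0.10), and was named after its value was seen.

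NFKBIA, NFKBIZ and TNFAIP3 are also immediate early genes, whose RNA can change within minutes of handling. Of 17 tested immediate early genes other than these, 10 were lower and 5 higher, against 27.1% and 26.4% of all tested genes. Their median was -0.55 on the log2 scale. FOS (-2.41, SE 0.13), KLF6 (-1.03, SE 0.05) and FOSL1 (-0.72, SE 0.06) were lower, while DUSP1, a phosphatase gene and a known glucocorticoid target, stood at 236 and 215 CPM against 42.0 and 38.4 CPM (2.49, SE 0.07). EGR2 (3.75, SE 1.07, on few counts), FOSB (0.93, SE 0.27), BTG2 (0.81, SE 0.10) and EGR1 (0.50, SE 0.07) were the other higher genes. They were named after their values were seen. The part of such early changes in the values of NFKBIA, NFKBIZ and TNFAIP3 was not tested.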

How the data were processed

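Per the labels and the file headers, the authors deposited 1 table of unnormalized read counts, by Ensembl identifier, with gene lengths. The submitters' processing notes name STAR for alignment, GRCh38 as the build and featureCounts 1.5.2 for counting. The strand setting is not given in the sources used here. The WT columns were taken as Non-target control by inference, since that is the only other group. Genes were named by identifier.

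The fit used edgeR 4.0.16 in R 4.3.3: filterByExpr (13179 genes), scaling by the trimmed mean of M values (TMM), and the robust quasi-likelihood test (2 residual degrees of freedom), with p-values adjusted by Benjamini and Hochberg's method across the 13179 genes. CPM are scaled by these factors, standard errors and intervals come from the fitted model, and levels per kilobase use the deposited lengths. The floor for a gene without counts, 3 counts over its group, covers counting error only. Replicates differed by more than sampling noise (chi-square per degree of freedom 2.44 and 1.56), so none was counted as a copy. The test was checked on simulated counts.

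Members and lists were chosen with earlier results of these data known. The text names all 10 members, EP300, 4 family genes and up to 4 genes with the smallest adjusted p from each other list. LCN2, TNF, KRT5, KRT7, KRT14, ITGB4 and the markers at or near 0 were named after their values were seen. Alternatives were other scalings, no filter, DESeq2 1.42.0, a replicate block and leaving out each library.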

Additional observations from a re-analysis of the deposited data

How the results depend on the processing

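All 7 lower calls among the 10 genes held under the 10 alternatives (3 other scalings, no filter on low counts, the DESeq2 Wald test, a replicate block and each library left out), and none of the other 3 genes was called under any of them. With library size alone, which shifts the median of all log2 fold changes by 0.08, NFKB1 turned to 0.030 and RELA to 0.014, with NFKB1 at 0.0060 under upper quartile scaling. As each library was left out, NFKB1 ran from -0.13 to 0.011 and NFKBIZ from -1.38 to -1.05. EP300 was at 0.18 with the DESeq2 Wald test and ran from 0.15 to 0.22 as each library was left out, and its call ended in the first and without control replicate 1. Over all genes, 2292 were called higher with the DESeq2 Wald test against 3485. With library size alone 4433 were higher and 2794 lower, against 3485 and 3570, and with upper quartile scaling 4133 and 2985. Both the lower and the higher calls among family and upstream genes were fewer with the DESeq2 Wald test. Family and upstream genes called higher ran from 6 to 10 of 58 as each library was left out, against 10 with all libraries. NFKBID, not called, was at 0.043 with upper quartile scaling, 0.068 with library size alone, and from -0.12 to 0.084 as each library was left out. With the replicate block 7271 genes were called against 7055, with 6985 in both, and the block changed no call among the 10 genes. Same-numbered libraries shared little (correlation of their deviations 0.05 across genes), and no label says that a number marks anything shared. Genes of few counts have wide errors, as for MAP3K8 (SE 0.26) and PTGS2 (SE 0.56).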
